A study of Homo sapiens with 3 samples.

Results

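The Polycomb and trithorax machinery was examined in EP300 peak lists as a set of 37 genes, of which 11 encode subunits of Polycomb repressive complex PRC2, 12 encode subunits of PRC1, and 14 encode trithorax-group proteins or H3K27 demethylases. These 37 genes were listed by name, and their peaks are the rows of both deposited peak lists whose assigned gene is one of them, with rows of equal interval joined. They held 69 of 65276 joined peaks in replicate 1 and 71 of 64896 in replicate 2, on chromosomes 1 to 22 and X. The reference throughout is the 19974 protein-coding RefSeq genes on those chromosomes.

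The peaks come from chromatin immunoprecipitation followed by sequencing (ChIP-seq) for EP300, a histone acetyltransferase and coactivator. The cells were H9, an established human embryonic stem cell line, wild type, and kept naive in PXGL medium, which combines the inhibitors PD0325901, XAV939 and Gö 6983 with human LIF over a mouse fibroblast layer. The series has 2 EP300 samples, each with its own peak list called against input, and 1 input sample without antibody that has no list here. The labels do not state whether these were separate cultures, so their spread may be technical, and 1 group with 2 samples allows no test between conditions. One line was used, and expression was not measured in these files, so the naive state and the activity of the genes could not be checked.

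PRC2 methylates histone H3 at lysine K27, and PRC1 ubiquitinates histone H2A, and both marks are known for holding developmental genes silent in embryonic stem cells. Trithorax-group complexes methylate H3 at lysine K4 and counteract Polycomb. EP300 acetylates the same H3K27 residue that PRC2 methylates, and it is commonly mapped to mark active promoters and enhancers.

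Reproducible EP300 regions lay within 3 kb of an annotated start of every one of the 37 genes, and the genes differed more in how enriched these peaks were than in whether they were present. Among the 37 genes, PRC2 genes had the highest typical enrichment and PRC1 genes followed in a narrow band. Trithorax genes sat close to the median of all coding genes. Other genes of the same pathways did not keep this order. Each class held at least 1 gene far above or below its own median. Away from start sites the genes held few regions, and 5 of the 12 distal regions belonged to CBX genes.

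A promoter region was counted where a peak annotated by the authors as promoter, that is within 3 kb of a start site, overlapped by at least 1 bp in both lists and carried the same gene name in both. By this count 34 of 37 genes had a promoter region, against 67.6% of all coding genes. The 34 were 10 of 11 PRC2 genes, 10 of 12 PRC1 genes and 14 of 14 trithorax genes. The other 3 genes, JARID2, PCGF2 and RING1, had strong regions at their start sites that the annotation named after neighbouring genes. When a region within 3 kb of the RefSeq 5′ end was also accepted, all 37 genes had one, against 80.3% of coding genes. This wider count was added after the lists were seen. Peaks of these genes were mostly shared between the lists. In all, 49 of 52 promoter peaks of these genes in replicate 1 and 49 of 53 in replicate 2 were shared, which is 94.2% and 92.5%, against 84.2% and 83.3% of all promoter peaks.

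Sequences are given as RefSeq windows from 250 bases before to 50 bases after a start site, in build GRCh38.p14, with every CpG dinucleotide in capitals. They are shown because they belong to the genes with the highest and some of the lowest enrichments among leading start-site regions and to a gene that the deposited annotation did not name. The window of RBBP4, chr1:32650958-32651257 on the plus strand, holds 42 CpG and lies inside the most enriched region of the set.
RBBP4: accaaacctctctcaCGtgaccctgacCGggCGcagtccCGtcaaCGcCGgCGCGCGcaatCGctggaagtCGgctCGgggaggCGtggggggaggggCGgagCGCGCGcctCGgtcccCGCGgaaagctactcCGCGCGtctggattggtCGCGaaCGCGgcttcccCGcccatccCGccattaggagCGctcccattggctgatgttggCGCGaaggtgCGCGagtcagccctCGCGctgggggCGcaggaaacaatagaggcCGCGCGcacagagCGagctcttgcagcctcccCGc
The window of EED, chr11:86244503-86244802 on the plus strand, holds 16 CpG and lies at the leading region of a PRC2 gene that had the lowest fold of the 37 genes in replicate 2.
EED: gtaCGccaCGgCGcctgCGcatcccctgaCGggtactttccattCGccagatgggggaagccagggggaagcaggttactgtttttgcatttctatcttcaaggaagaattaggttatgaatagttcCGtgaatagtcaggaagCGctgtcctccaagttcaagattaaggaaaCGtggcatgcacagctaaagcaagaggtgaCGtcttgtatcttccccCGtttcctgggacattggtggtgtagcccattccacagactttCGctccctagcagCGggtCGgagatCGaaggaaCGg
The window of MEN1, chr11:64810502-64810801 on the minus strand, holds 25 CpG and lies at the leading region with the lowest fold among trithorax genes in both lists.
MEN1: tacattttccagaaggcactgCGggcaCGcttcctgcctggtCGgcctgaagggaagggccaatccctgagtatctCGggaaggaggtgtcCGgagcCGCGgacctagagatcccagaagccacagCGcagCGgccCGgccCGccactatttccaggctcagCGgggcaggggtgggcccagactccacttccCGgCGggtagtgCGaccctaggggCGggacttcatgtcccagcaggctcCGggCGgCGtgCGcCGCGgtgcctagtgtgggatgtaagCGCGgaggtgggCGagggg
The window of RING1, chr6:33208250-33208549 on the plus strand, holds 41 CpG, and both EP300 summits fall inside it, 93 bp upstream of the start in replicate 1 and 44 bp upstream in replicate 2.
RING1: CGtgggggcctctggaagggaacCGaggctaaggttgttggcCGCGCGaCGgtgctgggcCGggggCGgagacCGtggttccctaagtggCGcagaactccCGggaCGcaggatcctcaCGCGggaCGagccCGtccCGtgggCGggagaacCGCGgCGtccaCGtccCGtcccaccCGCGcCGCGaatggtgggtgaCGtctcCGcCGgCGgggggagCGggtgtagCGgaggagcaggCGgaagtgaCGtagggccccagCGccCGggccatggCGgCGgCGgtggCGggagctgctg

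**Figure D1:**
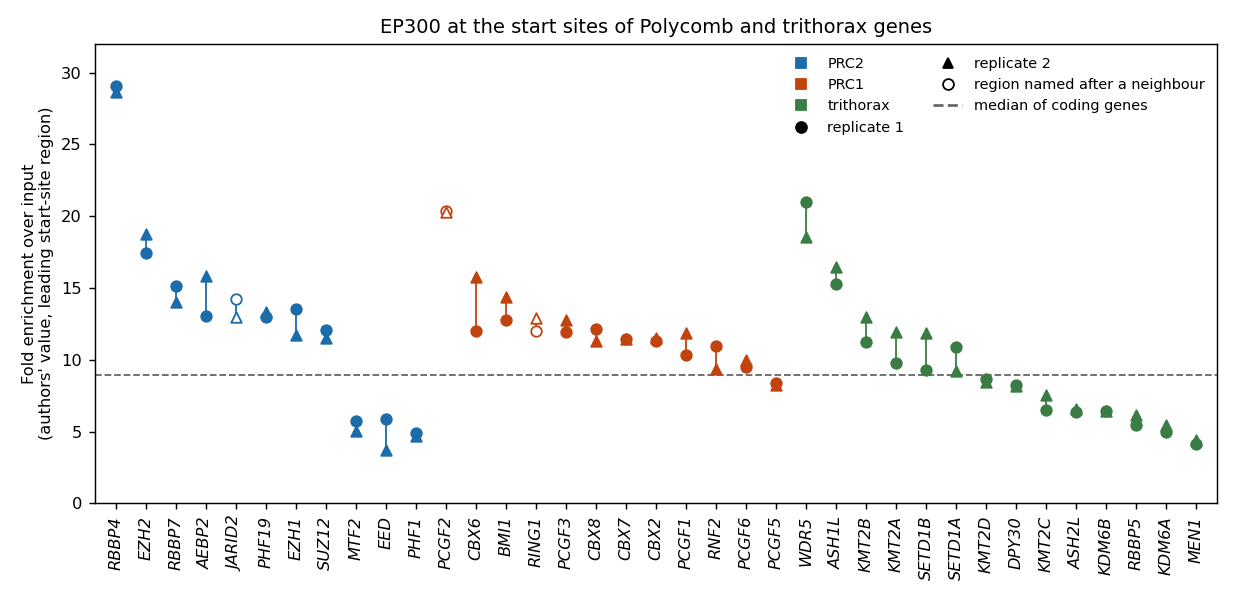
Fold enrichment over input (vertical axis, the authors' value at the summit) of the leading start-site region of each of the 37 genes, with circles for replicate 1, triangles for replicate 2, open symbols for regions named after a neighbouring gene in at least 1 list, and a dashed line at the median of coding genes. RBBP4 stands highest with 29.1 and 28.6, while MEN1 lies lowest in replicate 1 with 4.10, and EED lies lowest in replicate 2 with 3.73.

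The core of PRC2 consists of a methyltransferase, EZH1 or EZH2, with EED, SUZ12 and the histone-binding proteins RBBP4 or RBBP7. Values are the authors' fold enrichment over input at the summit of the leading region, given for replicate 1 and then replicate 2. RBBP4 had the highest enrichment of the 37 genes, 29.1 and 28.6, in a region at chr1:32649732-32652006. EZH2 had 17.5 and 18.8, and its paralogue EZH1 had 13.5 and 11.8, so the catalytic pair differed in the same direction in both lists. RBBP7, the X-linked paralogue of RBBP4, had 15.1 and 14.0, well below RBBP4 in both. SUZ12, a scaffold subunit, had 12.1 and 11.5. EED, which binds trimethylated H3K27, had only 5.84 and 3.73. EED was also the gene whose lists differed most downward, with a replicate 2 to replicate 1 ratio of 0.639. Its region, chr11:86244488-86245249, spanned 762 bp.

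The accessory PRC2 subunits split into a high and a low group. JARID2 and AEBP2, which define the PRC2.2 form of the complex, had 14.2 and 13.0 at JARID2 and 13.1 and 15.8 at AEBP2. PHF19, one of the Polycomb-like proteins of the PRC2.1 form, had 13.0 and 13.3. Its relatives PHF1 and MTF2 were lower in both lists, with 4.89 and 4.67 at PHF1 and 5.76 and 5.03 at MTF2. The high and low groups were drawn from these same values, so the gap between them is a description and no further result. The JARID2 region, chr6:15243933-15246074, was named JARID2-DT in replicate 1 and JARID2 in replicate 2, which is why it was missed by the count on assigned names. JARID2-DT is a divergent transcript whose start lies inside the same region.

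PRC1 pairs a RING-type ubiquitin ligase, RING1 or RNF2, with one of the PCGF proteins, and its canonical forms add a CBX chromodomain protein that reads H3K27 methylation. The ligases had similar enrichment, 12.0 and 12.9 at RING1 and 11.0 and 9.35 at RNF2. The RING1 region, chr6:33207548-33208981, was named after the microRNA gene MIR219A1 in both lists, although its summits lie within 93 bp of the RING1 start shown above. PCGF2 had 20.3 in both lists, the highest value in PRC1, in a region of 4005 bp at chr17:38746950-38750954 that both lists named after the Ensembl gene ENSG00000277182. BMI1, the paralogue of PCGF2 in canonical PRC1, had 12.8 and 14.4. The other PCGF genes were lower, with 11.9 and 12.8 at PCGF3, 10.3 and 11.8 at PCGF1, 9.47 and 10.0 at PCGF6, and 8.40 and 8.21 at PCGF5.

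The CBX genes were close together in replicate 1 and less so in replicate 2, where CBX6 stood above the others. Their 4 leading regions had 11.3 and 11.5 at CBX2, 12.0 and 15.8 at CBX6, 11.4 in both lists at CBX7, and 12.2 and 11.3 at CBX8. CBX6 was the gene whose lists differed most upward, with a replicate 2 to replicate 1 ratio of 1.31. The other 3 CBX genes differed by less than 1 unit of fold enrichment within each list.

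Among the trithorax-group methyltransferases, ASH1L, which methylates H3K36, was highest with 15.3 and 16.5. The paralogues KMT2A and KMT2B, which act with menin, had 9.79 and 11.9 and 11.3 and 13.0. The enhancer-associated paralogues KMT2C and KMT2D had 6.47 and 7.55 and 8.64 and 8.46, below both KMT2A and KMT2B in each list. SETD1A and SETD1B, the catalytic subunits of the SET1 complexes, had 10.9 and 9.19 and 9.30 and 11.9, so their order reversed between the lists. The SETD1B region, chr12:121802830-121805596, is the one assigned by the authors. Its RefSeq 5′ end lies further upstream, and the region within 3 kb of that end was weaker, with 6.87 and 5.23, and was named RHOF.

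WDR5, RBBP5, ASH2L and DPY30 form the module shared by these methyltransferase complexes, and their enrichment spanned a wide range. WDR5 had 21.0 and 18.5 in a region of 3209 bp at chr9:134134074-134137282. DPY30 had 8.27 and 8.14, ASH2L had 6.35 and 6.57, and RBBP5 had 5.49 and 6.17. WDR5 was thus the only member of the module above the coding-gene median of 8.88 in replicate 1 and 9.02 in replicate 2. MEN1, which encodes menin, had the lowest values in the trithorax class, 4.10 and 4.42. By their assigned regions the H3K27 demethylases were low as well, with 4.94 and 5.47 at KDM6A and 6.43 and 6.42 at KDM6B. At KDM6B the leading assigned region lay 1.55 kb downstream of the assigned start in replicate 1. A stronger region of 9.02 and 10.1, named after the Ensembl gene ENSG00000288748, lay within 3 kb of its 5′ end at chr17:7835631-7836820. That region exceeded the coding-gene median in both lists, so KDM6B was low by its assigned regions only.

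To set the classes beside each other, each leading region was ranked by fold enrichment among all peaks of its list, and the lower of its percentiles in both lists was kept. The median percentile was 92.8 over the 11 PRC2 genes, 89.7 over the 12 PRC1 genes and 80.1 over the 14 trithorax genes, against 80.0 over 15153 coding genes with a start-site region. PRC2 genes ranged from 32.3 to 99.9, PRC1 genes from 79.7 to 98.8 and trithorax genes from 42.5 to 98.1. The classes overlapped, and the PRC1 range was the narrowest. Median folds in replicate 1 and replicate 2 were 13.1 and 13.0 for PRC2, 11.7 and 11.7 for PRC1, and 8.46 and 8.30 for trithorax, against 8.88 and 9.02 for coding genes. At or above percentile 90 in both lists were 14 of 37 genes, 37.8%, against 20.5% of coding genes. These were 7 PRC2, 5 PRC1 and 2 trithorax genes, the last being WDR5 and ASH1L. Above the coding-gene median were 26 of 37, made up of 8 PRC2, 11 PRC1 and 7 trithorax genes. KDM6B lay below this median by its assigned region and above it by the region at its 5′ end, and SETD1B the reverse. These are descriptions of a chosen list, with no test between classes.

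**Figure D2:**
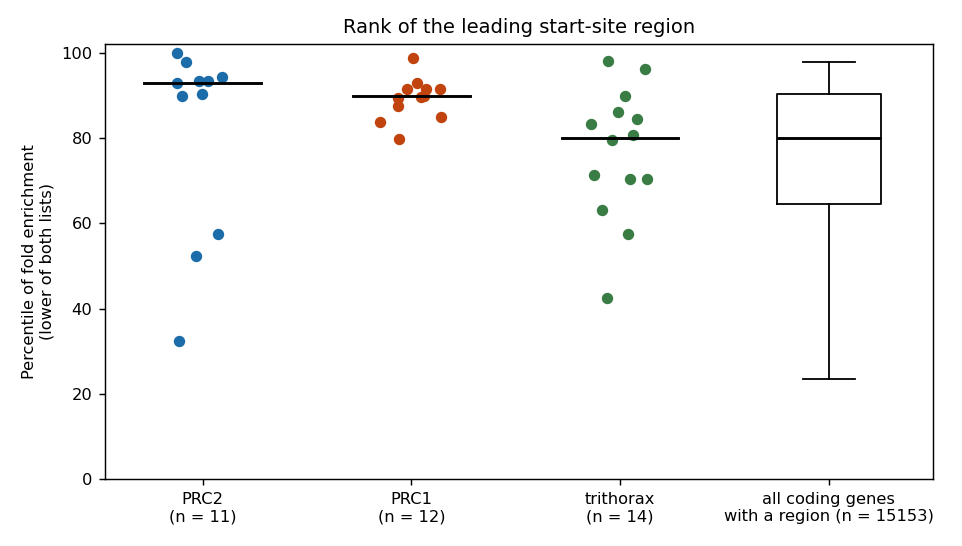
Percentile of fold enrichment (vertical axis, lower of both lists) of the leading start-site region, with 1 point per gene and a bar at each class median, beside a box plot of coding genes whose box spans the quartiles and whose whiskers run from the 5th to the 95th percentile. The PRC2 median lies at 92.8, PRC1 at 89.7, trithorax at 80.1 and coding genes at 80.0, with EED, PHF1 and MTF2 far below the other PRC2 genes.

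Subgroup medians lay close together within PRC2 and PRC1 and further apart within the trithorax class. The median percentile was 92.4 for the 6 PRC2 core genes and 92.8 for the 5 accessory genes. In PRC1 it was 89.4 for PCGF, 87.6 for RING and 89.7 for CBX genes. In the trithorax class it was 84.3 for the 7 methyltransferases, 70.4 for the 5 shared subunits, MEN1 counted among them, and 63.9 for the 2 demethylases. With regions at the RefSeq 5′ end under any name, it was 83.3 for the methyltransferases and 70.5 for the demethylases. The enrichment differed little between samples at these genes. The log2 ratio of replicate 2 to replicate 1 had a median of 0.03 and an SD of 0.20 over the 37 genes, against a median of 0.04 and an SD of 0.31 over 13506 coding genes. Neighbours in the order such as CBX2 and CBX7 differed by less than this spread, and SETD1A and SETD1B changed order between the lists.

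The leading regions were also placed alike in both samples. Their summits were a median of 26 bp apart between lists, against 36 bp for coding genes, and the largest gap was 304 bp, at SETD1B. The median region length was 1725 bp, against 1447 bp. Assigned leading regions of 3 kb or longer were found at KMT2B with 4029 bp, WDR5 with 3209 bp, CBX8 with 3043 bp and KMT2A with 3034 bp. That is 4 of 37 genes, against 3.81% of coding genes, and the region at PCGF2 of 4005 bp would make 5. Lengths run over the peaks of both lists, and at KMT2A the assigned peak of replicate 2 spanned only 1043 bp. Several of these long regions held more than 1 summit, with 4 in replicate 1 and 3 in replicate 2 at KMT2B, CBX8 and WDR5.

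Start sites were then examined one by one. RefSeq windows were found for 32 of the 37 genes, with 46 start sites in all. Of these, 36 starts lay inside a peak in both lists, 4 in 1 list and 6 in neither. Starts of 1 gene can share a peak, as at WDR5. The leading summit lay mostly on the transcribed side, about as often as at covered starts of coding genes. Over the 36 covered starts its median position was 237 bp downstream in replicate 1 and 219 bp in replicate 2, against 191 and 189 bp for covered starts of coding genes. It lay downstream at 25 of 36 starts in each list, against 69.7% and 69.9%. The starts covered in 1 list were the pair at JARID2, 1 at CBX6 and 1 at MEN1.

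**Figure D3:**
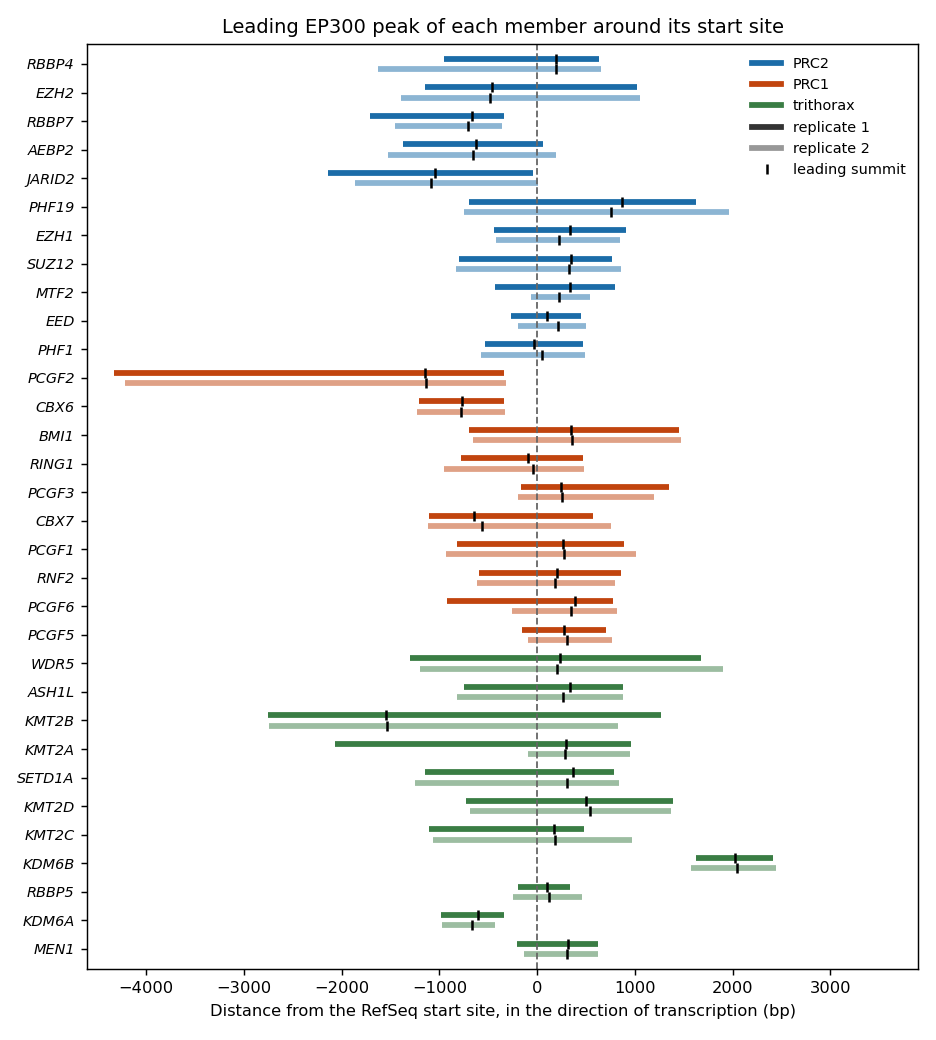
Extent of the leading peak of 32 genes along the distance from a RefSeq start site (horizontal axis, in bp, positive in the direction of transcription), with a dark bar for replicate 1, a pale bar for replicate 2 and a tick at the leading summit. The start is the one with a sequence window that lies nearest to the replicate 1 summit. Peaks of most genes span this start, and those of RBBP7, PCGF2, CBX6 and KDM6A end upstream of it in both lists, while that of KDM6B lies downstream. The PCGF2 region does span the RefSeq 5′ end of the gene, and the more upstream KDM6B start lies inside another peak with 4.90 and 7.79.

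The 6 uncovered starts fell into separate kinds. At RBBP7, PHF19 and KDM6A the start lay in a gap between peaks, with the nearest summit 248 to 388 bp away. RBBP7, for example, had a region upstream of this start with 15.1 and 14.0 and a region downstream with 6.47 and 7.34. At PCGF2, PCGF5 and KDM6B the uncovered start was poor in CpG, and the nearest summit was 791 to 2043 bp away. PCGF5 has both kinds of start within the same locus, so its windows are printed as a pair on the plus strand, CpG in capitals. The uncovered start at chr10:91219901-91220200 holds 5 CpG and 42.0% GC, and the covered start at chr10:91220413-91220712 holds 35 CpG and 74.7% GC.
PCGF5 uncovered start: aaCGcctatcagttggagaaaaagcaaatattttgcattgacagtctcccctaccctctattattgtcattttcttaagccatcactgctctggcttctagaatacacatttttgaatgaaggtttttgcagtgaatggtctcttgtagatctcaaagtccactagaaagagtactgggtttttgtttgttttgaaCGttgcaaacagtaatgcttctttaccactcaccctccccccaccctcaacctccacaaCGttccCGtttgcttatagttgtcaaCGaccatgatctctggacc
PCGF5 covered start: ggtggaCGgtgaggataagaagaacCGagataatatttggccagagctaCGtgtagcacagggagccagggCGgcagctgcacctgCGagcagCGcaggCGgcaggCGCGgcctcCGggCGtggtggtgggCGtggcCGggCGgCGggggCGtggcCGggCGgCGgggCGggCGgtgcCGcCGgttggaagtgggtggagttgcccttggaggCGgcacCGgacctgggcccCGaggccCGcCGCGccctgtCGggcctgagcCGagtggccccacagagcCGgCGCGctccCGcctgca
The covered window had a fold enrichment of 8.40 and 8.21 over it.

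CpG content and peak cover moved together over all genes. The observed over expected CpG ratio had a median of 0.929 over the 46 windows of these genes, against 0.738 over 22140 coding-gene windows, and median GC was 72.2% against 62.3%. Among coding-gene windows, a peak covered the start in both lists in 16.0% of 7236 windows with a ratio below 0.5 and in 77.3% of 14896 windows at or above 0.5. Covered windows of these genes had a median ratio of 0.965, and the 6 uncovered ones 0.534. The only covered window of the set below 0.5 was the most upstream of 4 at WDR5, with 0.304. The part of CpG content in the enrichment of these genes was not tested.

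Motif letters in the windows were counted on both strands, and windows of 1 gene can overlap. The SP/KLF GC box, GGGCGG, was found in 37 of 46 windows, 80.4%, against 56.3% of coding-gene windows, and in 27 of 32 genes, against 64.3%. This motif contains a CpG, so its count and the CpG content share letters. In percentage points, though not in every case as a ratio, the other motifs were closer to the coding-gene share. The NFY box CCAAT was in 37% of windows against 34.6%, the CRE motif TGACGT in 13.0% against 8.93%, and the YY1 motif AAGATGG in 10.9% against 6.04%. The ETS core CCGGAAG was in 8.70% against 12.8%, the NRF1 motif GCGCATGC in 4.35% against 3.74%, and the AP-1 motif TGANTCA in 2.17% against 6.16%. The AP-1 share rests on 1 window, at KDM6A. KMT2C had the most GC boxes, 15 in a single window, with an enrichment of only 6.47 and 7.55. The genes without a GC box were EED, MTF2, RBBP5, PCGF6 and PCGF2. Their enrichment differed widely, with 5.84 and 3.73 at EED and 20.3 in both lists at PCGF2, whose only window lies at an uncovered start.

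Some of these start-site regions were shared with another gene. Counting regions within 3 kb of the RefSeq 5′ end under any name, 34 of 37 genes had one, against 75.6% of coding genes. Of these 34 regions, 8 also held the start of another gene, either in the RefSeq table or as the gene the authors named at distance 0, which is 23.5%, against 32.1% of 14270 coding genes. By the RefSeq table the partners were ZBTB8OS at RBBP4, JARID2-DT at JARID2, RHOF at SETD1B, ASH1L-AS1 at ASH1L and WDR5-DT at WDR5, and all 5 are transcribed from the opposite strand. By the authors' name they were also MIR219A1 at RING1, ENSG00000277182 at PCGF2 and ENSG00000288748 at KDM6B. At these regions the peaks of the gene and of its partner cannot be told apart, which applies to RBBP4, PCGF2, JARID2, ASH1L and WDR5 among the most enriched genes.

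Distal regions were those outside promoters, more than 3 kb but at most 100 kb away from the assigned gene's start, with the same gene in both lists. There were 12 at 9 of 37 genes, against 20.2% of coding genes with at least 1, and the mean was 0.324 per gene against 0.418. CBX8 had 3 and WDR5 had 2, and 7 other genes had 1 each. The 2 genes with 2 or more compare with 8.48% of coding genes. PRC1 genes held 6, trithorax genes 4 and PRC2 genes 2, and no PRC2 core gene had any. This order was not stable, since replicate 1 alone gave 6, 7 and 4 in the same classes, replicate 2 alone gave 9, 5 and 4, and a fold of at least 5 in both lists left 0, 1 and 1. Each distal region was weaker than the leading start-site region of its gene in both lists. In replicate 1 the highest was in an intron of AEBP2 with 7.15 and 5.17, followed by introns of CBX7 with 6.37 and 4.72 and of SETD1B with 6.01 and 4.34.

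The CBX2 and CBX8 genes share a locus in which 8 regions assigned to CBX2 or CBX8 spread over 50.9 kb at chr17:79759943-79810801. These bounds are the outer ends of the assigned regions themselves. The start-site regions led, with 11.3 and 11.5 at CBX2 and 12.2 and 11.3 at CBX8. Distances upstream of CBX8 are the authors', from an assigned start that lies upstream of the RefSeq 5′ end at chr17:79797077. Of the other 6, the one 2.21 kb upstream of this assigned CBX8 start was highest with 6.73 and 4.58. The region 7.78 kb upstream of the assigned CBX8 start was the weakest in replicate 1, with 1.98 and 3.55. The intergenic region 17.3 kb upstream of CBX2 was the weakest in replicate 2, with 4.09 and 2.99. At WDR5 the distal regions lay 3.55 and 4.85 kb upstream of the start in replicate 1, with 5.76 and 5.86 and with 4.42 and 3.28. The most remote region was at PCGF5, 77.9 kb downstream in replicate 1, with 3.96 and 5.46. The nearest-gene assignment is the authors', and no contact data link these regions to the genes.

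**Figure D4:**
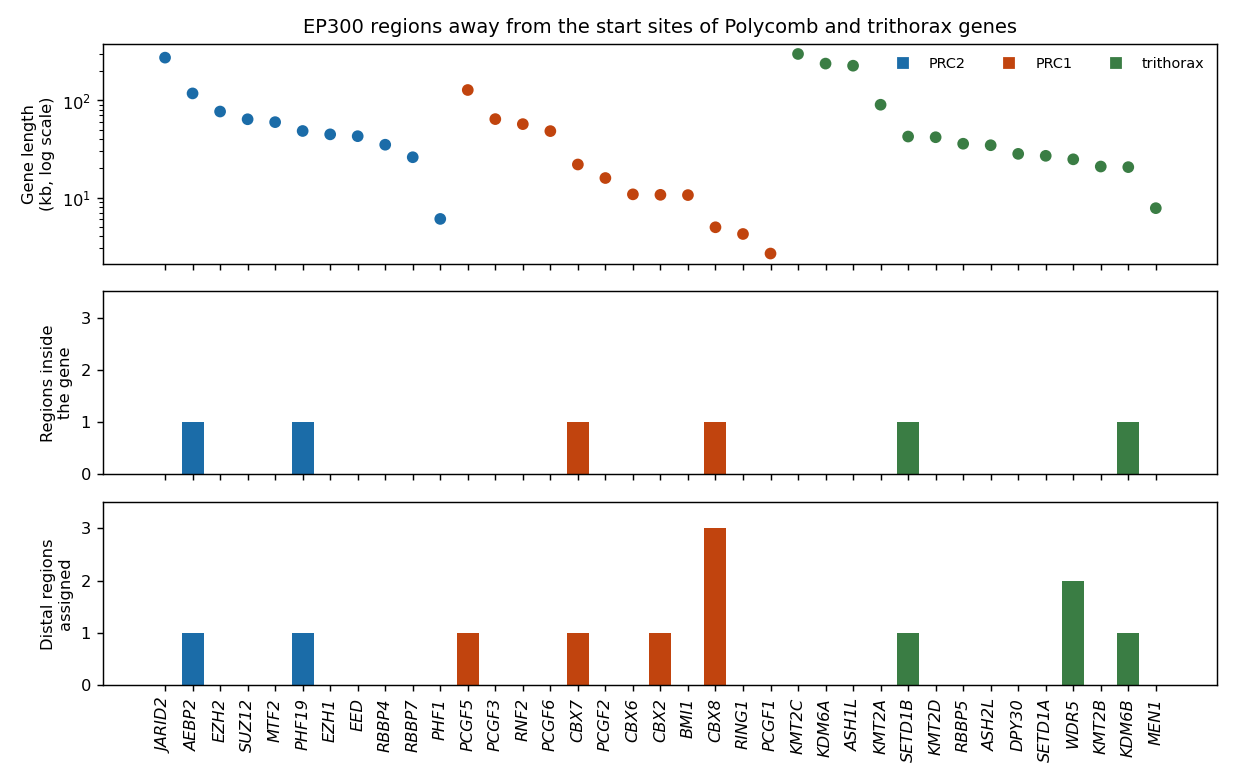
Gene length in kb on a log scale (top), EP300 regions inside the gene away from start sites (middle) and distal regions assigned to the gene (bottom) for the 37 genes, ordered by class and length. CBX8 holds 3 distal regions and WDR5 holds 2, and the 4 longest genes, KMT2C, JARID2, KDM6A and ASH1L, hold none of either kind.

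Because assignment by nearest start can give an intronic region to another gene, regions inside each gene were also counted whatever their assigned name, over 3 kb from the 5′ end and outside annotated promoters. This count was defined after values had been seen. It found 1 region each at AEBP2, PHF19, CBX7, CBX8, SETD1B and KDM6B, so 6 of 37 genes had any, against 16.0% of coding genes, which is close to the same share. Gene length differed, with a median of 35.8 kb over these genes against 24.2 kb. The 4 genes of at least 200 kb, KMT2C, JARID2, KDM6A and ASH1L, had no such region, whereas 59.9% of coding genes of that length had at least 1.

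Other genes of the same pathways, 38 in number and chosen by their known place in the complexes, were counted by assigned name. A promoter region was found at 33 of 38, against 67.6% of all coding genes, whose median percentile was 80.1. The counts of 6 of 8 and 3 of 4 given below lie near that share. Of the 15 other PRC1 genes 14 did, with a median percentile of 90, and KDM2B, which recruits a variant PRC1 to unmethylated CpG islands, had 30.2 and 31.7. E2F6 and MGA, DNA-binding partners of another variant PRC1, had 19.7 and 22.2 and 18.9 and 17.7. YAF2, a PRC1 subunit related to RYBP, had only 2.71 and 2.56, and WDR5B had no region. Of the 11 other genes of the H3K4 methyltransferase complexes and H3K4 demethylases 10 had a region, with a median of 88.8, among them NCOA6 with 17.5 and 18.5. Of the 8 genes around the Polycomb deubiquitinase 6 had one, with a median of 73.4, and the deubiquitinase gene BAP1 had none. Of the 4 other PRC2 genes 3 had one, with a median of 66.2, and EZHIP, an inhibitor of PRC2, had none. The class order seen above was thus not kept in these groups, where PRC2 had the lowest median, resting on 3 genes. BCOR, a corepressor of variant PRC1, held 10 of the 22 distal regions assigned to these 38 genes. The mean over the 38 genes was 0.579 distal regions per gene, against 0.418 over coding genes.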

How the data were processed

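EP300 ChIP-seq peak lists of 2 samples of naive H9 cells were used, and the input sample has no list here. Cells were fixed in 1% formaldehyde for 10 min, per the labels' protocols. The authors called peaks per sample against input, per the peak names in the deposited tables, and annotated them with ChIPseeker, per the table names. Build GRCh38 and fastp 0.19.11 come from the submitters' processing notes, while aligner, peak caller and threshold were not given in the sources used here. Per the file headers, each deposited row is 1 summit with a fold enrichment, a ratio over input. The −log10 p-value and −log10 q-value of each summit stand beside it, per the file headers. The largest q was 0.0497 in the list of replicate 1 and 0.0498 in that of replicate 2. No use was made of the deposited score. Fold values are the authors' own and served only to describe, rank or filter peaks within their list. Read depth is unknown.

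Rows of equal interval were joined (81061 rows into 65276 peaks, and 80208 into 64896), keeping the highest fold, its summit and the highest −log10 q. Peaks of both lists overlapping by at least 1 bp gave 46263 reproducible regions. The leading region of a gene is its assigned promoter region of highest percentile or, for JARID2, PCGF2 and RING1, the highest region within 3 kb of the RefSeq 5′ end. Genes are RefSeq protein-coding genes of GRCh38.p14, with strand known for 18867, and 185 were matched through an older symbol. RefSeq extents include the longest transcripts, so no region lay within 3 kb of that 5′ end at PHF19, AEBP2 and PCGF5, whose assigned start regions were used. Promoter sequences are from the RefSeq table of the same build, which matched 32 members and lacked 4161 coding genes.

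Every member is named. Values in full go to members without an assigned region, the 3 highest and 2 lowest of each class, those with most distal regions and the paralogue pairs, and other genes were named after their values were seen. The members and lists were chosen with earlier results of these data known, and no test was run on them. Alternatives were single lists, stricter overlap, fold and q minimums, other windows and ranking, and other gene assignment. The joining, overlap and counting steps were tested on simulated data. Python 3.11.15, pandas 2.3.3, numpy 2.4.6 and matplotlib 3.10.9 were used.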

Additional observations from a re-analysis of the deposited data

How the results depend on the processing

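Of 88 recomputed values 60 were labelled the same and 28 moved. Counts were labelled the same up to 1.5 times the value given, so 18 distal regions with replicate 2 alone against 12 still passed. Percentiles were held to a finer margin, and the PRC1 median of 89.7 with replicate 2 alone against 89.4 was labelled moved. All counts of genes with a promoter region stayed within 1.5 times the value given, in each class. That margin is wide for counts near their maximum. The count of 34 fell to 31 at 50% reciprocal overlap and to 30 at a fold of at least 5. The coding-gene share fell from 67.6% to 64.8% and 55.0% in these settings. Over the 34 genes with an assigned region the median percentile was 86.7. It was 89.1 to 89.8 with either list alone, 87.4 at 50% reciprocal overlap, 90.3 ranked by −log10 q, 78.2 ranked among promoter peaks alone, and 89.3 with regions at the 5′ end accepted. For PRC2 it was 91.8, 92.8 to 93.3 with either list alone, 93.3 at 50% overlap, 91.2 by −log10 q and 86.3 among promoter peaks. For PRC1 it was 89.4, 89.7 to 90.1 with either list alone, 91.0 by −log10 q, 82.4 among promoter peaks and 89.7 with the 5′ end accepted. For trithorax it was 80.1, 80.1 to 81.4 with either list alone, 85.5 by −log10 q and 68.2 among promoter peaks. In each of these settings the order PRC2, PRC1, trithorax was kept, although by −log10 q PRC2 and PRC1 were nearly level.

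Distal counts moved most. A fold of at least 5 left 2 of 12 regions, 1 in PRC2, 0 in PRC1 and 1 in trithorax. A −log10 q of at least 5 left 6, with 1, 3 and 2 in these classes. With either list alone PRC2 had 4 and trithorax had 5 to 7. Coding genes moved the same way, from a mean of 0.418 distal regions per gene to 0.134 at a fold of at least 5. Their mean was 0.222 at a −log10 q of at least 5, and 0.687 with replicate 1 alone and 0.685 with replicate 2 alone. The cause was not tested.

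No paired analysis was possible because both lists belong to 1 group and the input has no list. Read depth is unknown, so the limit it sets on weak regions could not be assessed, and fold enrichment depends on the single input.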

Other observations

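Peaks of these genes that appeared in 1 list alone were weak. There were 18 at 12 genes, 8 of 69 peaks in replicate 1 and 10 of 71 in replicate 2. Of all peaks, 16649 of 65276 and 16938 of 64896 were in 1 list alone. Whether such peaks are as weak at other genes was not examined. The highest of the 18, at DPY30 in replicate 1, had a fold enrichment of 4.55 and stood at percentile 50.4 of its list. AEBP2 had 4 of them and CBX6 had 3.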
